A study of Rattus norvegicus with 12 samples.

Results

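The genes described here are ACTA2 and 8 further genes of the smooth muscle contractile apparatus: TAGLN, CNN1, MYL9, ACTG2, TPM1, TPM2, CALD1 and MYLK. They are 9 of the 20263 genes listed, and all 9 passed the filter on low values (0.5 CPM or more in 3 or more of the 9 libraries kept in high glucose). They were taken by identifier, and the symbols come from that list of identifiers, since the deposited tables carry no gene names. ACTA2 was selected on its measured rise when a sirtuin inhibitor was added, so its values in the comparisons with the inhibitor are given as a description with no test. The other 8 were listed for their function, with earlier results of these data known.

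Smooth muscle cells contract when myosin pulls on filaments built of smooth muscle actins. Phosphorylation of the myosin regulatory light chain by myosin light chain kinase starts contraction, and tropomyosin, calponin and caldesmon bind the actin filament and tune it. Several of these genes are common targets of serum response factor with its cofactors of the myocardin family, and ACTA2 and TAGLN also mark activated fibroblasts and immature muscle cells, so the set is not confined to smooth muscle.

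RNA of H9C2 cells, an established line from the heart of a rat embryo that the labels call cardiomyocytes, was sequenced after 48 h in 4 groups of 3 biological replicates. The HG-Res-SIRT7-Inh group had glucose at 100 mM, resveratrol at 5 µM and, also at 5 µM, what the labels call an inhibitor of SIRT7. The HG-Res group had glucose at 100 mM and resveratrol at 5 µM, the HG group glucose at 100 mM and neither compound, and the Ctrl group glucose at 5.5 mM. All cells were labelled wild type and came from a single cell line, and resveratrol is a polyphenol from plants that is widely used to activate sirtuins. The treatment protocol names the inhibitor SirReal2, which is widely sold against SIRT2. No group received the inhibitor without resveratrol, and no vehicle or osmotic control is described in the labels, so a change with the inhibitor is a change in cells that also had resveratrol and high glucose.

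All 20263 identifiers carry Ensembl's human prefix, but the organism is labelled as rat and the submitters' processing notes name build rn6, and the species behind the values was not settled. Markers of cardiomyocytes and other cell types, and further genes of the pathway, could not be paired with identifiers and were not analysed here. Depth recovered from the values was 30.29 to 33.17 M reads per library. Levels are in CPM, a gene's reads scaled to a common library total and not by gene length, so levels of different genes are not comparable. HG-Res-SIRT7-Inh replicate 3 (-50.7) and HG replicate 2 (29.7) stood apart on the first principal component of all tested genes, where the other libraries lay between -17.1 and 14.4. Values without both, the outlying libraries, are given beside the results. In bulk RNA, fewer cells of a type and less RNA per cell cannot be told apart.

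When the inhibitor was added, the 2 smooth muscle actins moved in opposite directions. ACTA2 (ENSG00000107796), alpha smooth muscle actin, had 30.62, 26.52 and 22.38 CPM in HG-Res-SIRT7-Inh, 10.81, 11.95 and 11.34 CPM in HG-Res, and 8.11, 7.81 and 9.48 CPM in HG. The 3 groups did not overlap, and every HG-Res-SIRT7-Inh library lay above every other one. The means were 26.5 ± 4.12 CPM in HG-Res-SIRT7-Inh, 11.4 ± 0.57 CPM in HG-Res and 8.47 ± 0.89 CPM in HG (SD, n = 3 each). On the log2(CPM + 1) scale HG-Res-SIRT7-Inh exceeded HG-Res by 1.14 and HG by 1.53. By size, ACTA2 ranked 6 from the top of 12854 tested genes in the first and 1 in the second, ranks that the choice of the gene already used. Without the outlying libraries the differences were 1.26 and 1.59.

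ACTG2 (ENSG00000163017), gamma smooth muscle actin, the main actin of visceral smooth muscle, fell by more than any other of the 9 genes. It had 9.89, 10.4 and 6.4 CPM in HG-Res-SIRT7-Inh, 43.13, 46.86 and 42.97 CPM in HG-Res, and 44.65, 48.09 and 43.04 CPM in HG. The HG-Res-SIRT7-Inh libraries lay far below the rest, while HG-Res and HG overlapped. The means were 8.9 ± 2.18 CPM in HG-Res-SIRT7-Inh, 44.3 ± 2.2 CPM in HG-Res and 45.3 ± 2.58 CPM in HG (SD, n = 3 each). ACTG2 fell 4.66-fold in HG-Res-SIRT7-Inh against HG-Res, or -2.22 ± 0.16 in log2 (SE, limma adjusted p = 5.06e-05 over all tested genes). Against HG the fall was 4.75-fold, or -2.25 ± 0.16 in log2 (SE, limma adjusted p = 5.59e-05). In each comparison 10 of the 12854 tested genes had a lower log2 change. Both calls held in all 17 limma alternatives and by the authors' q-values, and without the outlying libraries the changes were -2.02 and -2.01.

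**Figure D1:**
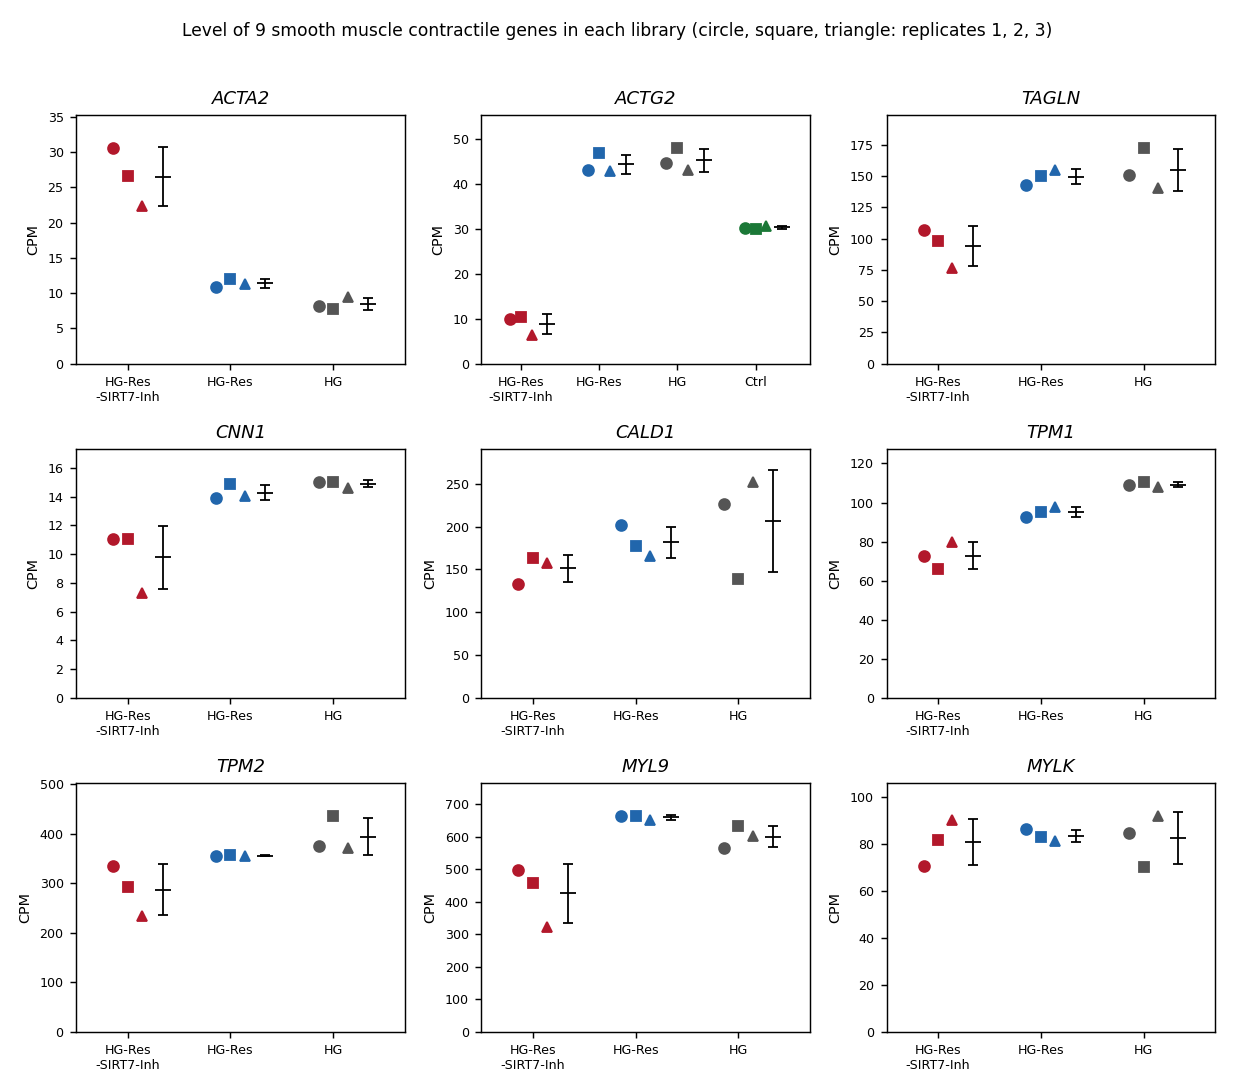
Level in CPM (y axis from 0) of each of the 9 genes in each library, by group (x axis), with mean and SD in black beside the 3 replicates. ACTA2 is highest in HG-Res-SIRT7-Inh (22.38 to 30.62 CPM) and ACTG2 lowest there (6.4 to 10.4 CPM); Ctrl is shown for ACTG2, listed by the authors in that comparison.

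The 2 actins were also set side by side within each library, as a description. The CPM ratio of ACTA2 to ACTG2 was 3.1, 2.55 and 3.5 in HG-Res-SIRT7-Inh, 0.251, 0.255 and 0.264 in HG-Res, and 0.182, 0.162 and 0.22 in HG. The ratio is of reads and not of molecules, and only its change between libraries can be read. ACTA2 was chosen on its rise in these libraries, so a higher ratio with the inhibitor follows in part from that choice. The reads assigned to either gene together came to 40.51, 36.92 and 28.78 CPM in HG-Res-SIRT7-Inh, 53.94, 58.81 and 54.31 CPM in HG-Res, and 52.76, 55.9 and 52.52 CPM in HG. This sum, given as a description since ACTA2 was chosen on these values, was lower in every HG-Res-SIRT7-Inh library than in every other one. The coding sequences of the muscle actins are similar but not identical, and the counting tool is not given in the sources used here. How any shared reads were assigned between ACTA2, ACTG2 and the other actins is therefore uncertain, and its part in these values was not tested.

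Of the actin-binding proteins, TAGLN fell with the inhibitor in both comparisons, CNN1 fell against HG, and CALD1 passed in neither. TAGLN (ENSG00000149591), transgelin or SM22, an actin cross-linking protein used as an early smooth muscle marker, had 106.98, 98.4 and 76.09 CPM in HG-Res-SIRT7-Inh, 142.79, 150.26 and 154.57 CPM in HG-Res, and 151.04, 172.7 and 140.22 CPM in HG. The HG-Res-SIRT7-Inh libraries did not overlap either group. TAGLN fell 1.6-fold against HG-Res, or -0.68 ± 0.14 in log2 (SE, limma adjusted p = 0.0213), and 1.65-fold against HG, or -0.72 ± 0.14 in log2 (SE, limma adjusted p = 0.0109). The call against HG held with any 1 library left out, but not with only HG-Res-SIRT7-Inh and HG in the fit (limma adjusted p = 0.0646). That against HG-Res was lost without HG-Res replicate 1, 2 or 3 (limma adjusted p = 0.0765, 0.0955 and 0.1) or HG-Res-SIRT7-Inh replicate 2 (0.0608), with log2 changes of -0.72 to -0.65.

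CNN1 (ENSG00000130176), calponin 1, an actin- and calmodulin-binding protein of differentiated smooth muscle, had 11.05, 11.04 and 7.26 CPM in HG-Res-SIRT7-Inh, 13.9, 14.86 and 14.04 CPM in HG-Res, and 15, 15.05 and 14.63 CPM in HG. Its HG-Res-SIRT7-Inh libraries were again below every other library, replicate 3 the lowest. CNN1 fell 1.5-fold against HG, or -0.58 ± 0.15 in log2 (SE, limma adjusted p = 0.0342). Against HG-Res the log2 change was -0.52 ± 0.15 and missed the threshold (SE, limma adjusted p = 0.0655). The call against HG was lost without any 1 of the HG replicates (limma adjusted p = 0.11, 0.0865 and 0.0753), any 1 of the HG-Res replicates (0.0643, 0.0637 and 0.0645) or HG-Res-SIRT7-Inh replicate 2 (0.0522). With no filter on low values it was also lost (limma adjusted p = 0.0516). Against HG-Res the threshold was passed with no library left out under median-of-ratios scaling (limma adjusted p = 0.0478) and TMM scaling (0.0452). It was also passed without HG-Res-SIRT7-Inh replicate 1 (limma adjusted p = 0.0372) or replicate 3 (0.0236, log2 change -0.34).

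CALD1 (ENSG00000122786), caldesmon, which inhibits myosin on the actin filament, had 133, 163.09 and 156.98 CPM in HG-Res-SIRT7-Inh, 201.44, 177.42 and 165.47 CPM in HG-Res, and 226.4, 138.93 and 252.59 CPM in HG. HG replicate 2 lay far below the other HG libraries and within the range of HG-Res-SIRT7-Inh. The log2 change was -0.26 against HG-Res (95% interval -0.72 to 0.19, limma adjusted p = 0.412) and -0.41 against HG (-0.86 to 0.05, limma adjusted p = 0.223). Without HG replicate 2 the change against HG was -0.67 and passed (limma adjusted p = 0.023), and without both outlying libraries it was -0.70 (limma adjusted p = 0.00292).

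The tropomyosins lie along the actin filament and control access of myosin. TPM1 (ENSG00000140416) had 72.76, 65.94 and 79.79 CPM in HG-Res-SIRT7-Inh, 92.82, 94.98 and 97.81 CPM in HG-Res, and 108.75, 110.74 and 108.01 CPM in HG. The 3 groups formed 3 separate steps with no overlap. TPM1 fell 1.5-fold in HG-Res-SIRT7-Inh against HG, or -0.58 ± 0.10 in log2 (SE, limma adjusted p = 0.00628), and this call held with any 1 library left out. With only HG-Res-SIRT7-Inh and HG in the fit it was lost (limma adjusted p = 0.0569). Against HG-Res the log2 change was -0.39 ± 0.10 and just missed the threshold (SE, limma adjusted p = 0.0506). It passed with no filter on low values (limma adjusted p = 0.0423) and without HG-Res-SIRT7-Inh replicate 1 (0.0488) or replicate 3 (0.00603).

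TPM2 (ENSG00000198467) had 334.02, 293.05 and 232.84 CPM in HG-Res-SIRT7-Inh, 355.49, 356.32 and 353.82 CPM in HG-Res, and 374.48, 436.22 and 370.37 CPM in HG. Here too no group overlapped another, but HG-Res-SIRT7-Inh replicate 1 was close to HG-Res. The log2 change was -0.32 against HG-Res (95% interval -0.62 to -0.03, limma adjusted p = 0.174) and -0.47 against HG (-0.77 to -0.17, limma adjusted p = 0.0526), and neither passed. Against HG-Res it passed without HG-Res-SIRT7-Inh replicate 1 (limma adjusted p = 0.0476), and against HG without replicate 1 (0.0177) or replicate 3 (0.035). Against HG it also passed with no library left out under median-of-ratios scaling (limma adjusted p = 0.0489). The CPM ratio of TPM1 to TPM2 was 0.218 and 0.225 in HG-Res-SIRT7-Inh replicates 1 and 2 and 0.343 in replicate 3, against 0.261 to 0.276 in HG-Res and 0.254 to 0.292 in HG, so the replicates with the inhibitor lay on either side of the other groups. Tropomyosins share stretches of sequence, as MYL9 does with the MYL12 light chains, so reads assigned to these genes carry the same uncertainty as the actins.

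The motor side of the set divided. MYL9 (ENSG00000101335), the regulatory light chain of smooth muscle myosin, had 497.61, 455.92 and 322.21 CPM in HG-Res-SIRT7-Inh, 662.72, 664.51 and 651.08 CPM in HG-Res, and 566.17, 630.96 and 601.98 CPM in HG. No group overlapped another, with HG-Res highest. MYL9 fell 1.58-fold in HG-Res-SIRT7-Inh against HG-Res, or -0.66 ± 0.15 in log2 (SE, limma adjusted p = 0.03). Against HG the log2 change was -0.52 ± 0.15 and just missed the threshold (SE, limma adjusted p = 0.0509). The call against HG-Res was lost without HG replicate 1 (limma adjusted p = 0.0575), HG-Res replicate 1, 2 or 3 (0.115, 0.117 and 0.108) or HG-Res-SIRT7-Inh replicate 2 (0.0647). Against HG the threshold was passed with no library left out under median-of-ratios scaling (limma adjusted p = 0.0425) and TMM scaling (0.0432), and without HG-Res-SIRT7-Inh replicate 1 (0.0191) or replicate 3 (0.0114, log2 change -0.33).

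MYLK (ENSG00000065534), the kinase that phosphorylates this light chain, had 70.35, 81.71 and 90.19 CPM in HG-Res-SIRT7-Inh, 86.2, 82.84 and 81.08 CPM in HG-Res, and 84.61, 70.19 and 91.97 CPM in HG. All 3 groups overlapped. The log2 change was -0.05 against HG-Res (95% interval -0.34 to 0.24, limma adjusted p = 0.801) and -0.02 against HG (-0.32 to 0.27, limma adjusted p = 0.915), so a change of more than about 0.34 in either direction lay outside the interval against HG-Res. Its sign turned with single libraries, and no direction can be given.

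**Figure D2:**
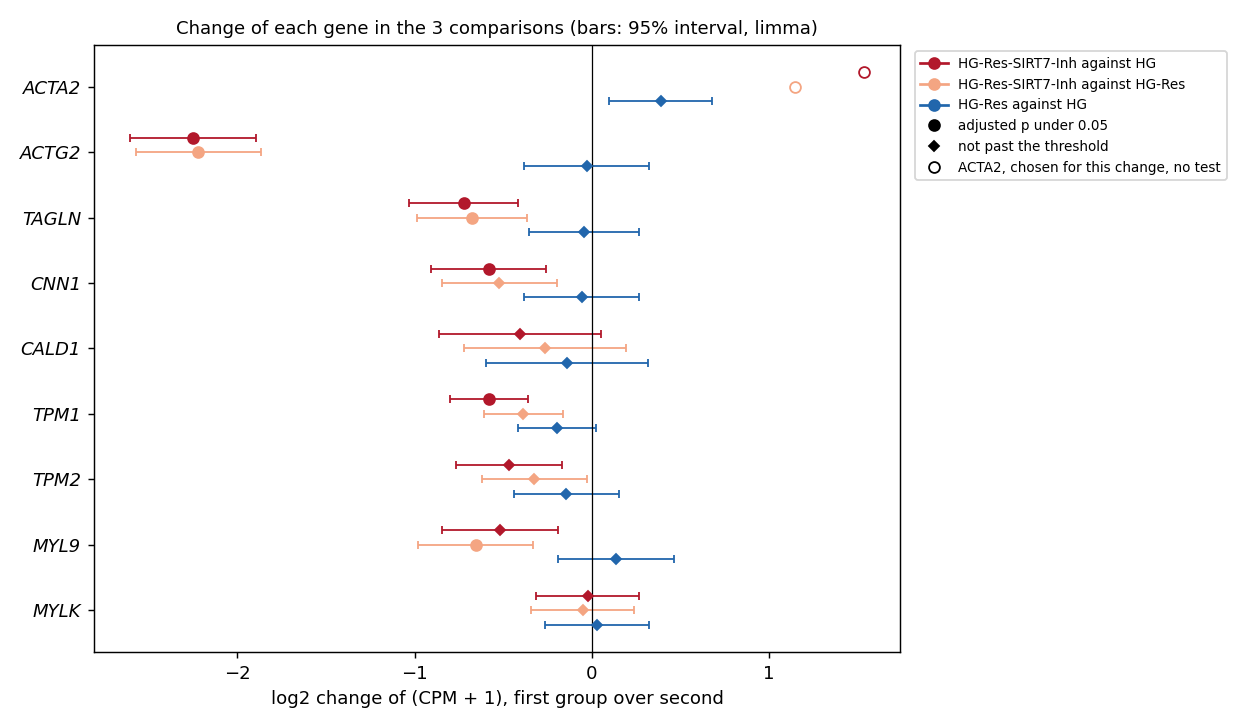
Log2 change of (CPM + 1) (x axis) of each gene (y axis) in 3 comparisons, with 95% intervals from limma that are not adjusted for the number of genes; round points passed an adjusted p of 0.05, diamonds did not, and open points mark ACTA2, which was chosen for this change. ACTG2 lies at -2.22 and -2.25 with the inhibitor, and the other tested genes lie between -0.72 and -0.02.

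Counted together, of the 8 genes other than ACTA2, 3 fell and 0 rose in HG-Res-SIRT7-Inh against HG-Res (ACTG2, TAGLN and MYL9), where 6.07% of all tested genes were called, 4.19% lower and 1.88% higher. Against HG, 4 fell and 0 rose (ACTG2, TAGLN, CNN1 and TPM1), where 10.8% of all tested genes were called, 6.5% lower and 4.27% higher. The authors' deposited table gave a q-value under 0.05 to 5 of the 8 against HG-Res, where it did so for 5.65% of its genes. Against HG it did so for 4 of the 8 and for 5.2% of its genes. These shares by q-value are over all 20263 listed genes, with low ones included, and not over the 12854 tested by limma. All 8 had a negative log2 change in both comparisons, though that of MYLK (-0.05 and -0.02) turned sign with single libraries left out. The median of the 8 was -0.45 against HG-Res and -0.55 against HG, beside 0.04 in each over all tested genes. In HG-Res-SIRT7-Inh against HG-Res the replicate values did not overlap for 7 of the 8 genes, beside 33.7% of all tested genes, and against HG for 6 of the 8, beside 28.1%. The comparisons share the HG-Res-SIRT7-Inh libraries, and the 8 genes are not independent of each other. All these limma calls also take their spread from all 3 groups. The median SD over tested genes was 0.242 in log2 in HG-Res-SIRT7-Inh, 0.071 in HG-Res and 0.132 in HG. With only the 2 groups compared in the fit, ACTG2 alone passed in each comparison. Calls over the 12854 tested genes then numbered 414 against HG-Res and 420 against HG. Without the outlying libraries the counts that fell were 5 (ACTG2, TAGLN, CNN1, MYL9 and TPM1) and 7 (all but MYLK) of the 8. Calls over all tested genes were then also more frequent, at 18.8% against HG-Res, 9.15% lower, and 31.0% against HG, 14.4% lower. The log2 changes against HG-Res were then -0.54 for TAGLN, -0.34 for CNN1, -0.47 for MYL9, -0.45 for TPM1, -0.18 for TPM2, -0.29 for CALD1 and -0.13 for MYLK. Against HG they were -0.50 for TAGLN, -0.39 for CNN1, -0.29 for MYL9, -0.64 for TPM1, -0.25 for TPM2, -0.70 for CALD1 and -0.22 for MYLK. For TAGLN, CNN1, MYL9 and TPM2 these changes were smaller in size than with all libraries, and for TPM1, CALD1 and MYLK larger.

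**Figure D3:**
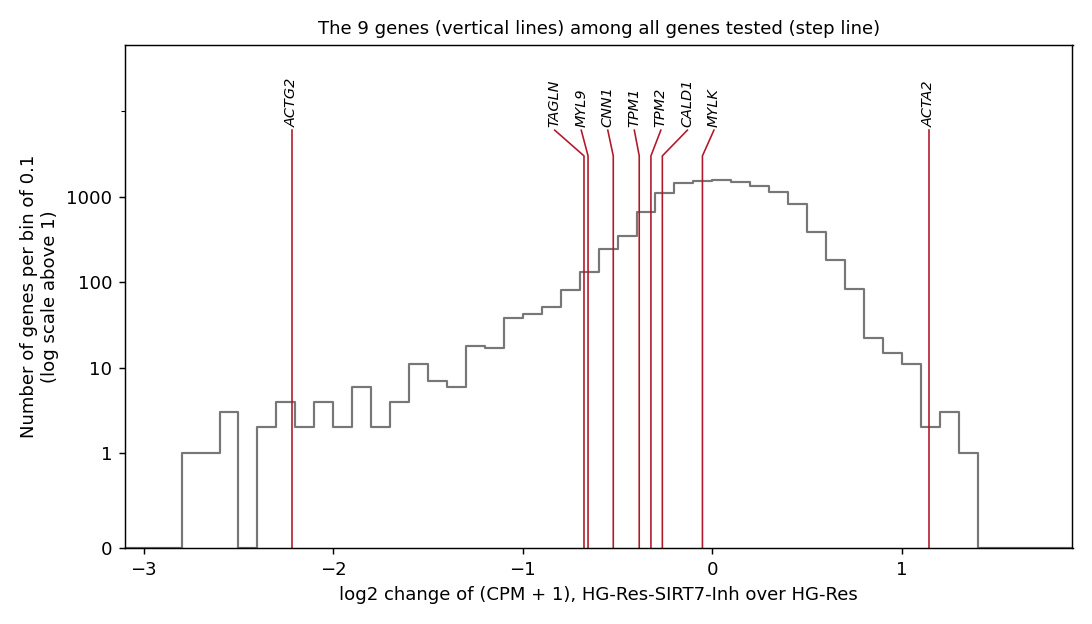
Number of the 12854 tested genes per bin of 0.1 (y axis, log scale above 1) by log2 change in HG-Res-SIRT7-Inh over HG-Res (x axis), with the 9 genes as vertical lines. ACTG2 at -2.22 lies in the far lower tail, ACTA2 at 1.14 near the upper end, and the other 7 between -0.68 and -0.05, all below the median of 0.04.

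Resveratrol added to high glucose brought no called change in these genes. In HG-Res against HG, 0 of the 9 passed limma's adjusted p of 0.05, where 0.708% of all tested genes were called, 0.327% higher and 0.381% lower. At an unadjusted p under 0.05 there was 1 of 9, ACTA2, beside 10.7% of all tested genes. ACTA2 also had a q-value of 0.0496 in the authors' deposited table, where 5.38% of all 20263 listed genes were under 0.05. ACTA2 was at 11.4 ± 0.57 CPM in HG-Res and 8.47 ± 0.89 CPM in HG (SD, n = 3 each), or 0.39 ± 0.13 in log2 (SE, limma adjusted p = 0.293). It passed without HG-Res-SIRT7-Inh replicate 3 (limma adjusted p = 0.0496) and without both outlying libraries (0.0363). These libraries also enter the comparisons that chose ACTA2, so this value is not independent of the choice.

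The other genes changed by -0.20 to 0.14 on the log2 scale with resveratrol. TPM1 had the lowest change, -0.20 (95% interval -0.42 to 0.03, limma adjusted p = 0.547), and MYL9 the highest of the 8, 0.14 (-0.19 to 0.46, limma adjusted p = 0.835). These intervals share the spread of HG-Res-SIRT7-Inh, whose median SD over tested genes was 0.242 in log2, beside 0.071 in HG-Res and 0.132 in HG. With only HG-Res and HG in the fit the SE fell from 0.099 to 0.056 for TPM1 and from 0.146 to 0.056 for MYL9. Neither passed (limma adjusted p = 0.0952 and 0.199). The replicate values of HG-Res and HG did not overlap for ACTA2, MYL9, TPM1 and TPM2, 4 of the 9 genes, beside 29.9% of all tested genes. For ACTG2 the change was -0.03 with an interval of -0.38 to 0.32 (limma adjusted p = 0.987), so a resveratrol change of the size seen with the inhibitor lay outside it. Without the outlying libraries, CALD1 changed by -0.40 and passed (limma adjusted p = 0.0321), where 21.2% of all tested genes passed. Its sign was not stable: without HG replicate 3 alone the change was 0.0277 (limma adjusted p = 0.987). Without HG replicate 2 alone it was -0.40 and did not pass (limma adjusted p = 0.358). No gene of the set besides CALD1 and ACTA2 passed in any alternative run for this comparison.

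ACTG2 was higher in high glucose than in normal glucose. In the comparison of HG with Ctrl the authors' table holds marked genes alone, 354 in all or 1.75% of the genes in the full tables, of which 95 were higher in HG, or 0.469%. ACTG2 was the 1 gene of the 9 in it. It had 44.65, 48.09 and 43.04 CPM in HG, against 30.26, 30.01 and 30.66 CPM in Ctrl. The authors' deposited table gave a log2 fold change of 0.64 with a q-value of 1.62e-09. The order of ACTG2 levels was thus HG-Res-SIRT7-Inh below Ctrl, and Ctrl below HG-Res and HG, which overlapped. The mean was 8.9 ± 2.18 CPM in HG-Res-SIRT7-Inh and 30.3 ± 0.328 CPM in Ctrl (SD, n = 3 each), a ratio of 0.294 that was not tested. Levels of the other 8 genes in Ctrl were not analysed here.

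The replicates did not vary alike. The SD of the 9 genes was 9.5% to 24.5% of the mean in HG-Res-SIRT7-Inh, 0.4% to 10.1% in HG-Res and 1.3% to 28.9% in HG. In HG-Res-SIRT7-Inh, replicate 3 was the lowest for ACTA2, ACTG2, TAGLN, CNN1, TPM2 and MYL9, 6 of the 9 genes, and the highest for TPM1 and MYLK. In HG, replicate 2 was the highest for ACTG2, TAGLN, CNN1, TPM1, TPM2 and MYL9 and the lowest for ACTA2, CALD1 and MYLK. Over all genes these were the outlying libraries. Without replicate 3 the log2 changes of TAGLN, CNN1, TPM2 and MYL9 with the inhibitor were smaller in size. Replicates 1 and 2 of HG-Res-SIRT7-Inh still lay below every HG and HG-Res library for ACTG2, TAGLN, CNN1, TPM1, TPM2 and MYL9, and above every one for ACTA2. The fewest reads behind any of these values were about 194, for ACTG2 in HG-Res-SIRT7-Inh replicate 3, where counting error alone is 7.18% of the value.

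**Figure D4:**
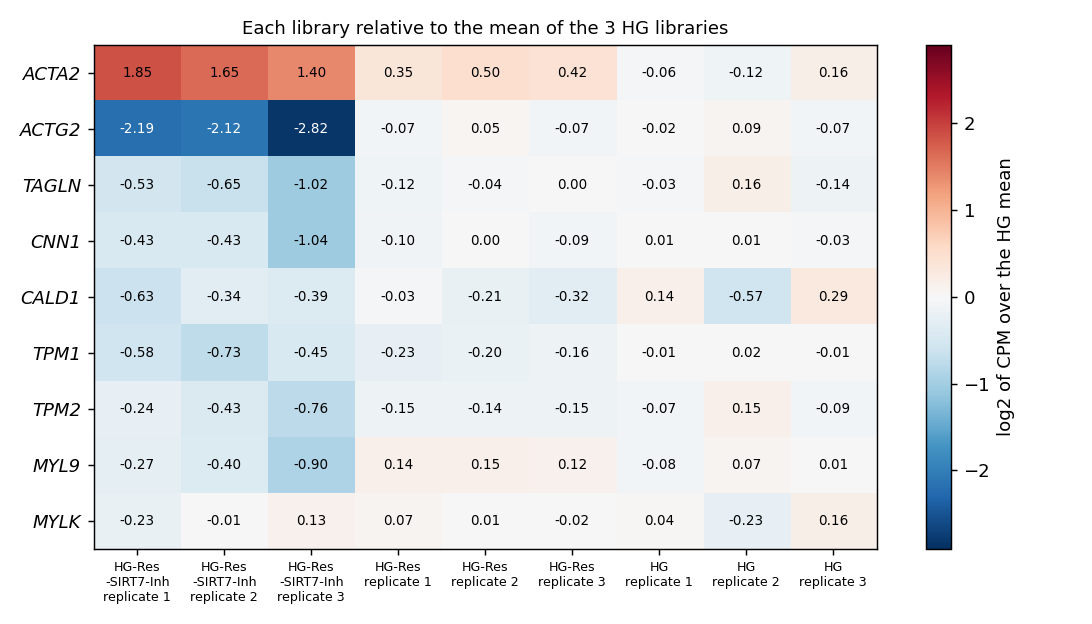
Log2 of each gene's CPM (rows) in each of the 9 high-glucose libraries (columns) over its mean in the 3 HG libraries; red is higher and blue lower. ACTA2 is positive and ACTG2 near or below -2 in all 3 HG-Res-SIRT7-Inh libraries, and replicate 3 has the lowest values of ACTG2 (-2.82), TAGLN, CNN1, TPM2 and MYL9.

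The pattern of ACTA2 over the 9 high-glucose libraries was compared with that of 3176 other genes whose log2(CPM + 1) had an SD of at least 0.3. The closest by Pearson's r was ENSG00000078804 (r = 0.99), with 62.83, 57.89 and 56.25 CPM in HG-Res-SIRT7-Inh, 35.53, 36.74 and 37.14 CPM in HG-Res, and 32.07, 31.81 and 30.44 CPM in HG. The next was ENSG00000054356 (r = 0.98), with 5.85, 4.59 and 3.17 CPM in HG-Res-SIRT7-Inh, 1.37, 1.2 and 0.97 CPM in HG-Res, and 0.79, 0.99 and 0.87 CPM in HG. Both were highest in each HG-Res-SIRT7-Inh library, and like ACTA2 they were highest in replicate 1 and lowest in replicate 3. The rest of the 5 closest genes did not share this order within the group. ENSG00000185432 was lowest in replicate 1 (18.6, 19.36 and 18.85 CPM). ENSG00000164976 (7.7, 7.87 and 5.84 CPM) and ENSG00000115380 (57.42, 57.66 and 51.76 CPM) were highest in replicate 2. The 5 closest genes had r of 0.97 to 0.99, and none was one of the contractile genes, whose r with ACTA2 ran from -0.96 (TPM1) to -0.16 (MYLK). These correlations rest on 3 groups of 3 libraries that share their treatment and are given as a description. ACTA2 was chosen on its rise in these same libraries, so high values with the inhibitor in the genes closest to it follow from that choice.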

How the data were processed

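Poly(A)-selected RNA was sequenced as 150 bp paired-end reads. Per the submitters' processing notes, Trimmomatic and build rn6 were used; the sources used here name no aligner, counter, annotation or test. The deposited values are headed TPM but behave as CPM: full columns share 1 total and low values are multiples of 1 step per library, with 100% of low values whole reads within the rounding of the printed CPM but only 56.1% to 98.2% within 0.1 of a read. Reads per gene are therefore approximate and no count model was run. The authors' log2 fold changes, p-values and q-values were copied as deposited.

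Values were fitted as log2(CPM + 1) with limma 3.58.1 in R 4.3.3, group means of HG-Res-SIRT7-Inh, HG-Res and HG in 1 fit, variances moderated with a trend on mean level, and Benjamini-Hochberg adjustment over the 12854 genes that reached 0.5 CPM in 3 or more libraries. Fold changes are on that scale and understate changes of low genes. The step was tested on simulated data with equal spread in all groups and no outlying library. That setting differs from these data, so it is no check of the p-values given here. P-values measure the spread between samples labelled biological replicates. The labels name no block, and none was used in the main fit. Same-numbered replicates did not deviate together throughout: r ran from -0.547 to 0.636 and was over 0.1 in 4 of 9 pairs. No replicate pair agreed within counting noise (chi-square per gene 5.26 to 173.08). Members, lists and alternatives were chosen with earlier results of these data known. All 9 members are named, with the genes closest to ACTA2 by Pearson's r. The planned list of further contractile genes and the cell type markers were not used, since 0 of 20263 identifiers matched the rat gene table (GRCr8). For the same reason no sequence is shown.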

Additional observations from a re-analysis of the deposited data

How the results depend on the processing

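For the 3 comparisons in high glucose, 18 alternatives were computed. With any 1 library left out, the number of the 9 genes called in HG-Res against HG was 0 to 1. Of the 8 genes other than ACTA2 it was 1 to 6 with the inhibitor against HG-Res and 3 to 6 against HG. With only the 2 groups compared in the fit it was 1 (ACTG2) in each comparison with the inhibitor. That fit has fewer samples and takes the spread from those 2 groups alone. TAGLN was then at limma adjusted p = 0.0503 and 0.0646, MYL9 at 0.0709 against HG-Res, and CNN1 and TPM1 at 0.124 and 0.0569 against HG. Without the outlying libraries the number called was 2 (HG-Res against HG), 5 and 7. By the authors' q-values it was 1 for HG-Res against HG and 5 with the inhibitor against HG-Res. The replicate block gave 0, 3 and 4, as without it, and changed no call among these genes. ACTG2, the 1 gene of the 9 in the authors' list of HG against Ctrl, had a fold change of 1.56 there, under 2-fold.

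Some changes that passed no threshold turned sign; the cause was not tested. In HG-Res against HG, without the outlying libraries, the log2 change was 0.035 for TAGLN (-0.05 with all libraries), 0.0143 for ACTG2 (-0.03) and -0.0809 for MYLK (0.03). With any 1 library left out it ranged from -0.11 to 0.035 for TAGLN, -0.0691 to 0.0143 for ACTG2, -0.0809 to 0.11 for MYLK and -0.40 to 0.0277 for CALD1. For MYLK with the inhibitor it ranged from -0.13 to 0.0421 against HG-Res and from -0.13 to 0.0697 against HG. Over all genes, calls numbered 91 for HG-Res against HG (596 with 2 groups, 45 with the replicate block, 1091 by the authors' q-values, 2722 without both libraries, 19 to 801 with 1 left out), 780 with the inhibitor against HG-Res (414, 649, 1145, 2412, 276 to 1778) and 1385 with it against HG (420, 1112, 1053, 3991, 549 to 2717). Median-of-ratios and TMM scaling moved the median of all genes by less than 0.1 and turned no sign among the 9 genes, but brought calls with the inhibitor. CNN1 passed against HG-Res under both and MYL9 against HG under both, and TPM2 passed against HG under median-of-ratios scaling. With no filter TPM1 was gained against HG-Res and CNN1 lost against HG. A count model was not run, since the printed CPM did not give whole reads within 0.1 for enough values. Counting error was at most 7.18% of any value of these genes.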
